A study of Mus musculus with 3 samples.

Results

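Translation initiation factors are the proteins that bring the initiator transfer RNA, the small ribosomal subunit and the messenger RNA together and then let the large subunit join. The genes described here were all rows of the deposited table whose name begins with Eif and a factor number from 1 to 6, leaving out 4 genes for kinases of eIF2 (Eif2ak) and the 2 genes for the third subunit of eIF2 (Eif2s3). This gave 51 of the 16977 genes in the table. Of these, 4 carry the older names Eif2c1 to Eif2c4 and encode Argonaute proteins, which act in microRNA silencing and not in initiation, so 47 members are initiation factors or proteins named after one.

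The RNA came from neural stem cells of C57BL/6J mouse embryos (stage E12.5), cultured with EGF and FGF, and ribosomal RNA was removed before sequencing. There were 2 libraries of cells infected with a lentivirus carrying a short hairpin RNA against Phf2 (shPHF2), described by the submitters as biological replicates, and 1 library of cells infected with a control hairpin (shControl). PHF2 is a PHD-finger protein of a histone demethylase family that acts on lysine 9 of histone H3. The cells of both groups had been through lentiviral infection, and the labels give neither a second hairpin nor a second control culture, so the spread of the control could not be estimated.

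In the order shPHF2 replicate 1, shPHF2 replicate 2 and shControl, 37171026, 26302177 and 32898139 reads fell in genes, and 358266, 251645 and 358728 of these in the 51 members. Phf2 had 985 and 714 normalised reads in the shPHF2 libraries, against 2593 in shControl, so the hairpin's target was lower in both (log2 fold change -1.63; limma, adjusted p = 0.0085). Of 11 neural stem and radial glia markers, 11 were measured, with a summed level of 334723 and 381321 normalised reads in shPHF2 and 322979 in shControl. Vim took the largest part of it in shPHF2 (116785 and 132042, against 77235 in shControl), while Nes, Sox1, Pax6, Hes1 and Hes5 lay below shControl in both shPHF2 libraries. Sox2 was the 1 marker of these 11 called by limma, as higher. The 5 astrocyte markers summed to 5261 and 3439 in shPHF2 and 5250 in shControl, with 1 called by limma, as higher. The 5 oligodendrocyte lineage markers summed to 24607 and 29348 in shPHF2 and 29993 in shControl, with 0 called. Most of the latter sum was Olig2, with 24241 and 29091 in shPHF2 and 29320 in shControl. Of 6 neuron markers, 5 were in the table; they summed to 41054 and 40239.8 normalised reads in shPHF2 and 61793 in shControl, with 0 called by limma. Nearly all of that sum was Map2, with 37935 and 38518 in shPHF2 and 60020.2 in shControl, while Tubb3 had 198 and 346 in shPHF2 and 104 in shControl. The part of these markers in the results below was not tested. The 3 microglia and macrophage markers in the table summed to 34.2 and 14.5 in shPHF2 and 10.96 in shControl, and the 4 fibroblast markers to 14.2 and 14.5 in shPHF2 and 6.98 in shControl. In such bulk samples, fewer cells of a type and less RNA per cell cannot be told apart.

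As background, eIF1 and eIF1A open the small subunit for scanning, eIF2 carries the initiator transfer RNA and is recharged with GTP by eIF2B, and eIF3 is a many-subunit scaffold on the small subunit. The eIF4 group binds the cap and unwinds the messenger RNA, eIF5 and eIF5B complete start-site selection and subunit joining, and eIF6 keeps the large subunit free until it is needed. Phosphorylation of eIF2 and sequestration of eIF4E by its binding proteins are the main ways in which cells turn initiation down. Dividing progenitors are known for a high demand for protein synthesis.

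Levels below are in normalised reads (read counts scaled by a size factor for each library), and fold changes are log2 differences of (normalised reads + 1), shPHF2 over shControl. Of the 51 members, 50 passed the minimum mean of 10 over the 3 libraries. Among them 5 fell and 0 rose in shPHF2 (limma, Benjamini-Hochberg adjusted p under 0.05 over all 14148 genes tested). They were Eif2s1, Eif2s2, Eif1a, Eif4e and Eif4a3, that is the alpha and beta subunits of eIF2, an eIF1A gene, the cap-binding protein and an RNA helicase of the exon junction. The 5 make up 10.0% of the members tested, beside 7.11% of all genes tested that were called lower, 7.22% that were called higher and 14.3% in either direction, so the share of calls lay near the background. At an unadjusted p under 0.05, 13 of 50 members were lower, beside 15.4% of all genes tested, and 2 were higher, Eif2b2 and Eif4e3, beside 15.8%. All 5 calls, and those of all other genes, were lost in limma without the mean-variance trend, with no filter on low values or with quantile normalization, where the smallest adjusted p of a member was 0.118 to 0.1495. On the recovered reads edgeR called 5 members lower and 0 higher, beside 8.06% of all genes lower and 7.12% higher. DESeq2 called 5 members lower and 0 higher, beside 7.43% of genes lower and 7.66% higher. After a GC and length correction limma called 4 members lower and 0 higher, beside 6.68% of genes lower and 3.89% higher. The lower genes made up 49.6% of all calls in limma without the correction, 63.2% with it, and 49.3% to 53.1% under the other alternatives that called any gene.

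The members as a whole leaned to lower values by small amounts. Both shPHF2 libraries lay below shControl for 36 of 50 members (72.0%) and above it for 7 (14.0%), while over all genes tested both lay below it for 41.8% and above it for 41.4%. Here and below, both replicates are set against the same single shControl library, so their shared direction is not independent. The median log2 fold change of the members was -0.25, with -0.25 in replicate 1 and -0.28 in replicate 2, beside -0.01 for all genes tested. For 38 of 50 members the fold change was under 0.5 on the log2 scale in either direction. The members took 0.964% and 0.957% of the reads in genes in shPHF2 replicates 1 and 2, and 1.09% in shControl. The shPHF2 libraries differed from each other by a median of 0.12 on the log2 scale over the members, beside 0.21 over all genes tested.

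**Figure D1:**
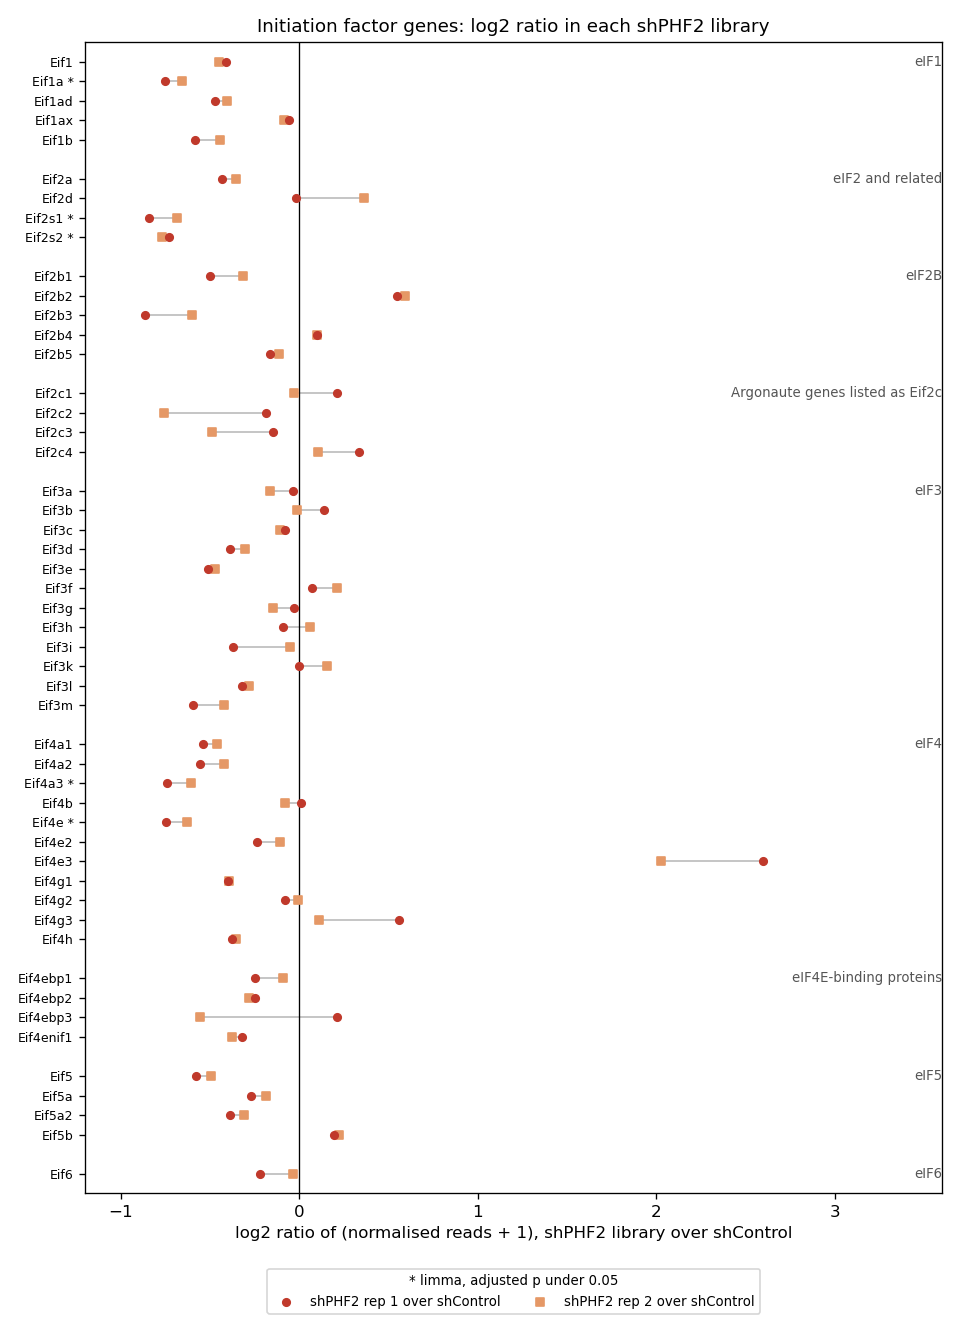
Log2 ratio of each shPHF2 library over shControl (x axis, log2 of normalised reads + 1) for the 50 members tested, grouped by factor; circles are replicate 1, squares replicate 2, and an asterisk marks an adjusted p under 0.05 (limma). Both points lie left of 0 for 36 members, and Eif4e3, with 4 reads in shControl, is the far point on the right.

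The alpha and beta subunit genes of eIF2, which carries the initiator transfer RNA, gave the lowest fold changes of the members. They lay close to Eif2b3 (-0.73 with an SE of 0.23) and Eif1a (-0.70 with an SE of 0.17), so the order is uncertain. The genes for the third subunit (Eif2s3) were left out by the rule, so eIF2 is not described as a whole. Eif2s1, the alpha subunit of eIF2 and the target of its kinases, had 4666 and 5190.3 normalised reads in the shPHF2 libraries, against 8356 in shControl. Its shPHF2 mean of 4928 ± 371 (SD, n = 2) was 59.0% of shControl, a log2 fold change of -0.76 with an SE of 0.18 (limma, adjusted p = 0.030). Eif2s2, the beta subunit, had 2659 and 2586 in shPHF2, against 4409.8 in shControl, a log2 fold change of -0.75 with an SE of 0.17 (limma, adjusted p = 0.028). Both libraries with the Phf2 hairpin were low for both subunits and lay close to each other. The genes lie on chromosome 12 from 78861819 to 78887010 (Eif2s1, plus strand) and on chromosome 2 from 154871410 to 154892935 (Eif2s2, minus strand) in GENCODE M21 on GRCm38. A value sums reads over the exons of a gene and does not separate its transcripts.

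Eif2a and Eif2d, which encode separate proteins able to bring transfer RNA to the ribosome without eIF2, did not pass. Eif2a had 2035 and 2145 normalised reads in shPHF2 and 2746 in shControl, with a log2 fold change of -0.39 (95% interval -0.80 to 0.01). Eif2d had 709 and 921 in shPHF2 and 718 in shControl, so its replicates lay on opposite sides of the control.

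The 5 subunits of eIF2B, the exchange factor that reloads eIF2 with GTP, did not move together and 0 were called by limma, edgeR or DESeq2. Eif2b3 was the lowest, with 550.2 and 662 normalised reads in shPHF2 and 1004 in shControl, a log2 fold change of -0.73 with an SE of 0.23 (limma, adjusted p = 0.075). Eif2b2 was the highest, with 1421 and 1465 in shPHF2 and 972 in shControl, a log2 fold change of 0.57 with an SE of 0.19 (limma, adjusted p = 0.086). These subunits are partners in 1 complex, and their values lay on opposite sides of the control in both shPHF2 libraries. Eif2b1 stood at -0.41, Eif2b5, the catalytic subunit, at -0.14 and Eif2b4 at 0.099 on the log2 scale.

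Of the 5 members with factor number 1, all had lower values in both shPHF2 libraries, beside 41.8% of all genes tested. The test was passed by 1 of the 5, beside 7.11% of all genes called lower. Eif1a, on chromosome 18 from 46597701 to 46616456 (plus strand), had 3857 and 4117 normalised reads in shPHF2, against 6488 in shControl, a log2 fold change of -0.70 with an SE of 0.17 (limma, adjusted p = 0.035). Its X-linked relative Eif1ax, which encodes a closely related eIF1A protein, had 4847 and 4761 in shPHF2 and 5055 in shControl, a log2 fold change of -0.073 (95% interval -0.47 to 0.32). Eif1a had 0.796 and 0.865 times the reads of Eif1ax in the shPHF2 libraries and 1.28 times in shControl, so the ratio was lower in both shPHF2 libraries. These ratios of reads are not corrected for length, and the difference between the genes was not tested. The labels do not say how reads matching both genes were treated, so the pair's values are uncertain.

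Eif1 and Eif1b, related genes for the start-site fidelity factor eIF1, gave similar values. Eif1 had 1129 and 1102 normalised reads in shPHF2 and 1503 in shControl, and Eif1b had 1199.7 and 1321 in shPHF2 and 1799 in shControl. Their log2 fold changes of -0.43 and -0.51 did not pass (limma, adjusted p = 0.17 and 0.11). Eif1ad, which encodes a protein with an eIF1A-like domain that acts in ribosome assembly, stood at -0.44 and shares 16.7% of its exon bases with Banf1 on the other strand. Eif1b shares 5.51% of its exon bases with D830035M03Rik on the other strand.

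**Figure D2:**
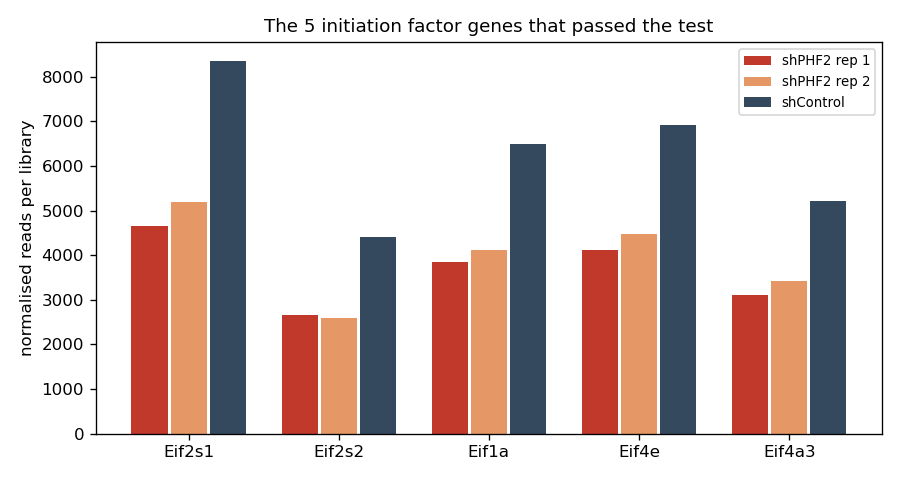
Normalised reads (y axis, from 0) of the 5 members that passed the test, with 1 bar for each library: shPHF2 replicate 1, shPHF2 replicate 2 and shControl, without error bars. In each gene both shPHF2 bars lie below the shControl bar and near each other, between 55.8% and 65.7% of it.

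Of the 13 eIF3 subunit genes, 12 were tested and 0 were called by limma, edgeR or DESeq2. At an unadjusted p under 0.05 in limma 2 were lower, beside 15.4% of all genes tested. The median log2 fold change of the 12 was -0.10. Both shPHF2 libraries lay below shControl for 8 of the 12 (66.7%), beside 41.8% of all genes tested. The large core subunits were close to the control. Eif3a, with the most reads of the group, had 14692 and 13441 normalised reads in shPHF2 and 15059 in shControl (log2 fold change -0.10, 95% interval -0.55 to 0.35). Eif3c stood at -0.094 and Eif3b, another core subunit, at 0.062 on the log2 scale.

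The lowest values in eIF3 were those of Eif3m and Eif3e. Eif3m had 1131 and 1274 normalised reads in shPHF2 and 1708 in shControl, a log2 fold change of -0.51 with an SE of 0.20 (limma, adjusted p = 0.12). Eif3e had 3829 and 3945 in shPHF2 and 5464 in shControl, a log2 fold change of -0.49 with an SE of 0.17 (limma, adjusted p = 0.094). Other subunits lay higher, with Eif3f at 0.14, Eif3k at 0.076 and Eif3h at -0.017. Eif3d, a subunit that can itself bind the cap, stood at -0.35, and 32.9% of its exon bases overlap Gm17638 on the other strand. Eif3l stood at -0.30, Eif3i at -0.21 and Eif3g at -0.089.

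Per kilobase of annotated exon, the 12 subunit genes covered a 4.30-fold, 4.75-fold and 4.18-fold range of levels in shPHF2 replicate 1, shPHF2 replicate 2 and shControl. The median level was 2615 and 2621 normalised reads per kilobase in shPHF2 and 2816 in shControl. Eif3l and Eif3i were the highest in all 3 libraries, at 3789 and 3776 in shPHF2 replicate 1, 3889.5 and 4714 in replicate 2, and 4738 and 4881 in shControl. Eif3m and Eif3b were the lowest in all 3, with Eif3m at 882 and 993 in shPHF2 and 1332 in shControl, and Eif3b at 1282 and 1157 in shPHF2 and 1167 in shControl. The exon lengths come from GENCODE M21, which may not be the annotation the authors counted with. Eif3j2 had 1 read in each of the 3 libraries and was not tested. Its relative Eif3j1 was not among the genes in the deposited table under that name, so its level is not known.

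**Figure D3:**
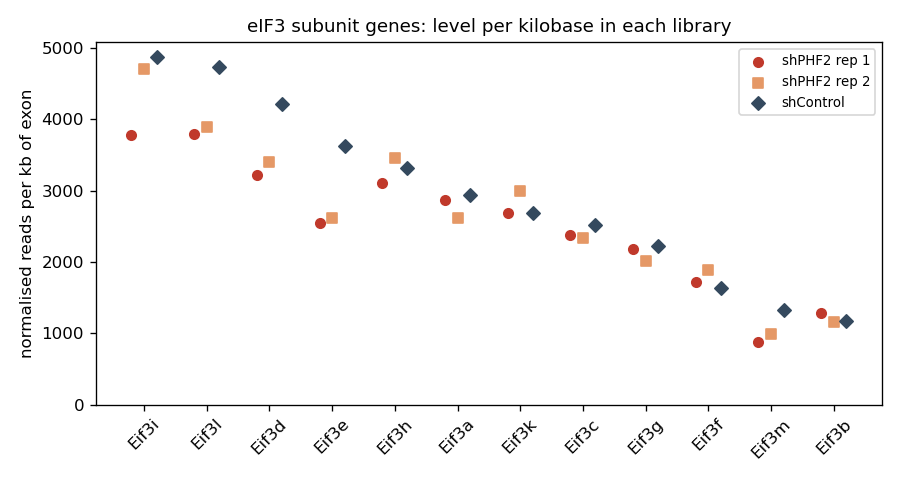
Level of the 12 eIF3 subunit genes tested, in normalised reads per kilobase of exon (y axis, from 0), with 1 point for each library and the genes ordered by the shControl level. Eif3i and Eif3l lead in all libraries and Eif3m and Eif3b close the order, while for 8 genes, Eif3a, Eif3c, Eif3d, Eif3e, Eif3g, Eif3i, Eif3l and Eif3m, the shControl point lies above both shPHF2 points.

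Of the 11 members in the eIF4A, eIF4B, eIF4E, eIF4G and eIF4H families, 2 passed (18.2%), beside 7.11% of all genes called lower. The 2 were Eif4e of the cap-binding complex and Eif4a3 of the exon junction complex. Eif4e, the protein that binds the cap, had 4118 and 4472 normalised reads in shPHF2, against 6921 in shControl, a log2 fold change of -0.69 with an SE of 0.18 (limma, adjusted p = 0.038). It lies on chromosome 3 from 138526179 to 138559696 (plus strand). Its call was lost after values were corrected for GC content and length (log2 fold change -0.64; limma, adjusted p = 0.056, over a range of 0.025 to 0.20 in the alternatives). Eif4e2, a related cap-binding protein linked to silencing, had 2885 and 3148 in shPHF2 and 3398 in shControl, a log2 fold change of -0.17. The reads of Eif4e were 1.43 and 1.42 times those of Eif4e2 in shPHF2 and 2.04 times in shControl, a difference between the genes that was not tested.

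Eif4e3, the third cap-binding gene, was near the detection limit, with 35 and 16 reads in shPHF2 and 4 in shControl. This corresponds to 29.2 and 19.3 normalised reads in shPHF2 and 3.99 in shControl, and the log2 fold change of 2.31 had an SE of 0.91 and did not pass (limma, adjusted p = 0.13). It shares 14.8% of its exon bases with Gm20696 on the same strand. Its share of the 3 cap-binding genes' reads was 0.415% and 0.253% in shPHF2 and 0.0386% in shControl.

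The eIF4A helicases unwind structure before the ribosome, apart from eIF4A3, which acts in the exon junction complex. Eif4a3 had 3108 and 3419 normalised reads in shPHF2, against 5205 in shControl, a log2 fold change of -0.67 with an SE of 0.18 (limma, adjusted p = 0.041). It lies on chromosome 11 from 119288363 to 119300089 (minus strand). Eif4a1 had 8030.2 and 8494 in shPHF2 and 11696 in shControl, a log2 fold change of -0.50 with an SE of 0.18 (limma, adjusted p = 0.10). Eif4a2 had 7791 and 8554 in shPHF2 and 11450.0 in shControl, a log2 fold change of -0.49 with an SE of 0.18 (limma, adjusted p = 0.12). The 3 helicase genes thus gave values near each other on the log2 scale, and the ratio of Eif4a2 to Eif4a1 was 0.970 and 1.01 in shPHF2 and 0.979 in shControl. The similarity of Eif4a1 and Eif4a2 was not computed. The labels do not say how reads matching both genes were treated, so this pair's values are uncertain. Eif4b and Eif4h encode cofactors of these helicases. Eif4b had 18852 and 17709.8 in shPHF2 and 18737 in shControl, while Eif4h had 17110.0 and 17369 in shPHF2 and 22218 in shControl (log2 fold change -0.37; limma, adjusted p = 0.26).

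The scaffold genes of the eIF4G family gave values on both sides of the control, with 0 of 3 called by limma, edgeR or DESeq2 and 0 at an unadjusted p under 0.05 in limma. Eif4g1, which bridges the cap-binding protein and eIF3, had 22817 and 22886 normalised reads in shPHF2 and 30067 in shControl, a log2 fold change of -0.40 (95% interval -0.90 to 0.10). Eif4g2, which lacks the site for eIF4E and took the most reads of all members, had 53906 and 56786 in shPHF2 and 57000.0 in shControl, a log2 fold change of -0.043 (95% interval -0.67 to 0.58). Eif4g3 had 7374 and 5394 in shPHF2 and 5008 in shControl, a log2 fold change of 0.33 (95% interval -0.18 to 0.84), with the replicates far apart. Eif4g1 made up 27.1% and 26.9% of the reads of the 3 genes in shPHF2 and 32.7% in shControl.

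**Figure D4:**
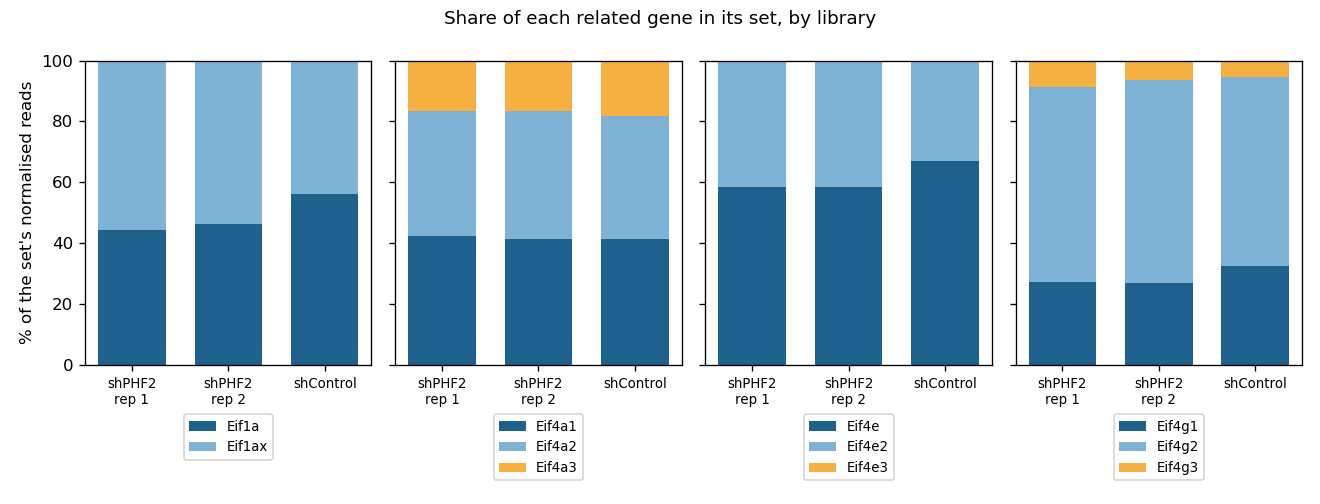
Share of each related gene in the summed normalised reads of its set (y axis, percent), with 1 bar for each library: shPHF2 replicate 1, shPHF2 replicate 2 and shControl. Eif1a held 44.3% and 46.4% of its pair in shPHF2 and 56.2% in shControl, Eif4e 58.6% and 58.5% in shPHF2 and 67.0% in shControl, and Eif4a1 42.4% and 41.5% in shPHF2 and 41.3% in shControl; Eif4e3 is too small to be seen.

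Genes for proteins that hold eIF4E back were not called, with 0 of 4 by limma, edgeR or DESeq2 and 0 at an unadjusted p under 0.05 in limma. Eif4ebp1 had 1425 and 1591 normalised reads in shPHF2 and 1694 in shControl, and Eif4ebp2 had 949.6 and 931 in shPHF2 and 1130.4 in shControl. Their log2 fold changes were -0.17 (95% interval -0.61 to 0.27) and -0.27 (95% interval -0.73 to 0.20). The reads of Eif4ebp1 were 0.346 and 0.356 times those of Eif4e in shPHF2 and 0.245 times in shControl. Eif4ebp3 had 304 and 178 in shPHF2 and 263 in shControl, and 67.3% of its exon bases lie in another gene on the same strand, so its value is uncertain. Eif4enif1, which carries eIF4E into the nucleus, stood at -0.35 on the log2 scale.

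The 4 members with factor number 5 and Eif6 were not called by limma, edgeR or DESeq2. Eif5, which stimulates GTP hydrolysis by eIF2, had 17005 and 18026 normalised reads in shPHF2 and 25358 in shControl, a log2 fold change of -0.53 with an SE of 0.21 (limma, adjusted p = 0.12). Eif5a, whose protein carries hypusine and acts mainly in elongation and termination, had 15322 and 16249 in shPHF2 and 18504 in shControl, and Eif5a2 had 2955 and 3114 in shPHF2 and 3868 in shControl. Eif5a held 83.8% and 83.9% of the reads of this pair in shPHF2 and 82.7% in shControl. Eif5b, the GTPase of subunit joining, had 1438 and 1471 in shPHF2 and 1259 in shControl, a log2 fold change of 0.21 (95% interval -0.23 to 0.64), and 15.9% of its exon bases overlap Rev1 on the other strand. Eif6 had 3088 and 3513 in shPHF2 and 3595 in shControl, a log2 fold change of -0.13.

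The replicates lay further apart for the 4 Argonaute genes than for the median member. Eif2c2, the name used in the table for Ago2, had 3854 and 2597 normalised reads in shPHF2 and 4387 in shControl, a log2 fold change of -0.47 with an SE of 0.24 (limma, adjusted p = 0.23). Eif2c1 (Ago1) had 7547 and 6380.3 in shPHF2 and 6510.0 in shControl. Eif2c3 and Eif2c4 stood at -0.32 and 0.22 on the log2 scale, and 0 of the 4 were called by limma, edgeR or DESeq2 or had an unadjusted p under 0.05 in limma. With these 4 left out, 5 of 46 members fell and 0 rose, and the median log2 fold change was -0.25.

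Other genes of translation and its control, a list of 49 all of which were tested, were called in both directions, 4 lower and 3 higher (limma). That is 8.16% called lower, beside the 7.11% of all genes given above. The 3 of 49 called higher stand beside 7.22% of all genes, so the calls in both directions lay near the background. The median over the list was -0.10 on the log2 scale, beside -0.01 for all genes tested. The release factor genes Etf1 and Gspt1 fell, while Gspt2, a relative of Gspt1, did not. Gspt2 had 874 and 795 normalised reads in shPHF2 and 863 in shControl (log2 fold change -0.051; limma, adjusted p = 0.90). Etf1, which reads the stop codon, had 7958 and 7886 normalised reads in shPHF2, against 13603 in shControl, a log2 fold change of -0.78 with an SE of 0.18 (limma, adjusted p = 0.029). Its GTPase partner Gspt1 had 8439 and 8401 in shPHF2, against 14667 in shControl, a log2 fold change of -0.80 with an SE of 0.18 (limma, adjusted p = 0.028). Abce1, which splits ribosomes after termination, had 11939 and 12642 in shPHF2 and 18655 in shControl and did not pass in limma (log2 fold change -0.60, adjusted p = 0.076), while DESeq2 called it. The main elongation factors Eef1a1 and Eef2 stood at -0.28 and -0.12 on the log2 scale. Eef1e1, named after an elongation factor but known as a scaffold of the transfer RNA synthetase complex, had 1006 and 1279 in shPHF2, against 2656 in shControl, a log2 fold change of -1.23 with an SE of 0.21 (limma, adjusted p = 0.013).

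Among the 12 listed regulators of eIF4, a list chosen with earlier results of these data known, Pdcd4 changed most. It encodes an inhibitor that binds the eIF4A helicase, and it had 2632 and 3155 normalised reads in shPHF2, against 583 in shControl, a log2 fold change of 2.30 with an SE of 0.20 (limma, adjusted p = 0.0036). Mknk1, a kinase that phosphorylates eIF4E, had 1119.7 and 1018 in shPHF2, against 479 in shControl, a log2 fold change of 1.15 with an SE of 0.22 (limma, adjusted p = 0.016). Its relative Mknk2 had 4172 and 3447 in shPHF2 and 2427 in shControl, a log2 fold change of 0.64 that did not pass (limma, adjusted p = 0.061). Eef2k, the kinase that inhibits elongation factor 2, had 2564 and 2345 normalised reads in shPHF2, against 1558 in shControl, and rose by 0.65 on the log2 scale (limma, adjusted p = 0.049), a call not made by DESeq2 or after the GC and length correction. Rps6kb1, the S6 kinase that acts on eIF4B and PDCD4, had 2836 and 2622 in shPHF2, against 4332 in shControl, a log2 fold change of -0.67 with an SE of 0.17 (limma, adjusted p = 0.042), a call lost after the same correction. Mtor, the kinase upstream of the eIF4E-binding proteins, stood at 0.0040 on the log2 scale (95% interval -0.39 to 0.40).

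The kinases of eIF2 were not called, with 0 of 4 by limma, edgeR or DESeq2. At an unadjusted p under 0.05 in limma 2 of the 4 were higher, beside 15.8% of all genes tested. Eif2ak2, the kinase activated by double-stranded RNA, had 2648 and 2040.0 normalised reads in shPHF2 and 1501 in shControl, a log2 fold change of 0.63 (limma, adjusted p = 0.085). Eif2ak3, the kinase of the endoplasmic reticulum, had 1744 and 2218 in shPHF2 and 1383 in shControl, a log2 fold change of 0.51 (limma, adjusted p = 0.14). Eif2ak1 and Eif2ak4 stood at -0.20 and -0.17. The phosphatase regulator Ppp1r15a had 546 and 558 in shPHF2 and 560.2 in shControl. Transcript levels of these kinases say nothing of the phosphorylation of eIF2, which was not measured.

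**Figure D5:**
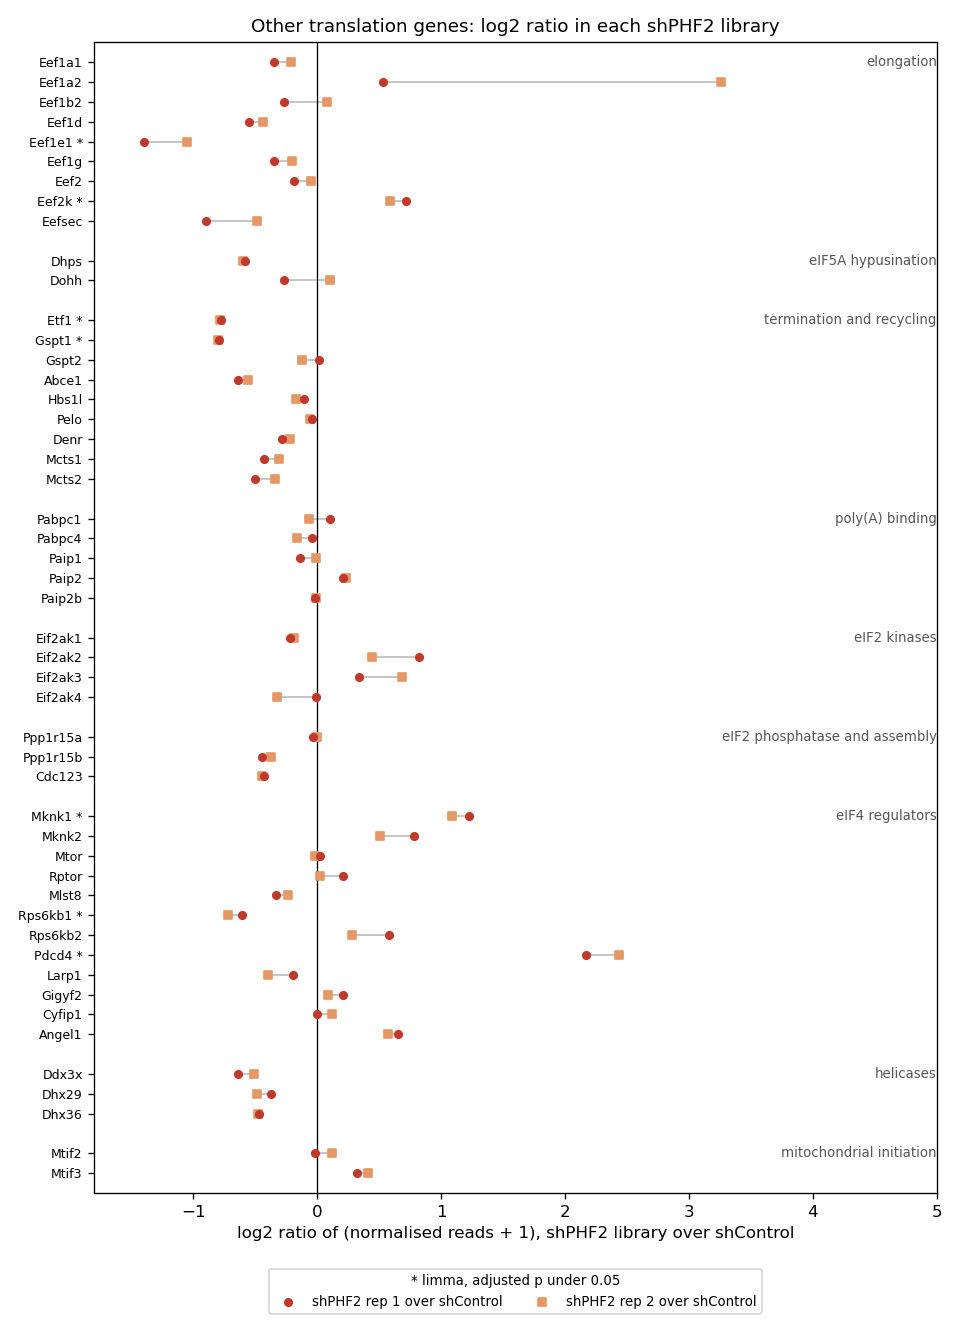
Log2 ratio of each shPHF2 library over shControl (x axis, log2 of normalised reads + 1) for the 49 other translation genes by role; circles are replicate 1, squares replicate 2, and an asterisk marks an adjusted p under 0.05 (limma). Pdcd4 lies furthest right of the marked genes at a fitted 2.30 and Eef1e1 furthest left at -1.23, and the far square of Eef1a2 rests on a gene with 3.33 and 27.7 normalised reads in shPHF2 and 1.99 in shControl.

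Promoter sequences were looked at because members leaned the same way. RefSeq windows on GRCm38.p6, of 250 bases before to 50 after a start, were matched for 39 of the 51 members. The other 12 are Eif1a, Eif2b3, Eif2c2, Eif3e, Eif3h, Eif3i, Eif3j2, Eif4e3, Eif4ebp1, Eif4ebp3, Eif4g2 and Eif6. The E-box CACGTG, the same on both strands and bound by MYC-type factors among others, was in at least 1 window of 10 of the 39 members (25.6%), 11.5% of the tested genes with a window and 8.09% of all genes with one. Members had up to 6 windows each, and the number of windows per gene was not matched between members and other genes. A gene with more windows has more places for a match, so these shares are not strictly like for like. Of the 4 fallen members with a window, Eif4e alone held the E-box, in stretches that overlap annotated exons. The E2F-type letters TTTCGCGC or TTTGGCGC were found in 2 of 39 members, Eif2d and Eif4enif1, beside 1.76% of the tested genes with a window. The letters TTGCATCA, part of an ATF and C/EBP composite element, were in 0 of 39 members and 0.709% of the tested genes with a window; both strands were searched for each. A match describes the letters in the window and is not a bound site.

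The E-box stretches below show the motif in capitals with 20 bases on either side, 5′ to 3′ on the strand of the gene, for 4 of the 6 members with a stretch outside annotated exons of Eif genes; those of Eif5a2 and Eif3k are not shown. They are shown because they are the most frequent shared element found, in a helicase, a scaffold, eIF5A and an eIF3 subunit. The coordinates are chr11:69672587-69672632 (minus strand) for Eif4a1, chr16:20672653-20672698 (plus) for Eif4g1, chr11:69921435-69921480 (minus) for Eif5a and chr7:108934327-108934372 (plus) for Eif3f.
Eif4a1: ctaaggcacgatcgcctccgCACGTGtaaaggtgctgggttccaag
Eif4g1: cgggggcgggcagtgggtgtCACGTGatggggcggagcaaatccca
Eif5a: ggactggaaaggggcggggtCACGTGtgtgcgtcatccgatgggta
Eif3f: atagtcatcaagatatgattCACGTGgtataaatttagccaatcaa
Of these 4 genes, Eif4a1, Eif4g1 and Eif5a stood at -0.50, -0.40 and -0.23 and Eif3f at 0.14 on the log2 scale, and 0 of them passed (limma, with Eif4a1 at an unadjusted p of 0.025; edgeR and DESeq2 also called 0).

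In the authors' deposited table the same 5 members were called lower and 0 higher, with 2 adjusted p-values empty. There the background was 7.96% of genes called lower and 8.04% higher. The authors' log2 fold changes were -0.76 for Eif2s1, -0.75 for Eif2s2, -0.70 for Eif1a, -0.69 for Eif4e and -0.67 for Eif4a3, with adjusted p-values of 0.010, 0.016, 0.021, 0.024 and 0.033 in the authors' deposited table. These come from the same 3 libraries and are not independent of the values above.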

How the data were processed

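RNA from 2 shPHF2 libraries and 1 shControl library was processed with HISAT2, HTSeq and DESeq2 on mm10, per the submitters' processing notes; their versions, the annotation and the strand setting used in counting are not recorded there. The deposited signal is read counts divided by DESeq2 size factors, per the file headers and the values, and 100% of values were whole multiples of a library's step (within 0.001), so whole reads were recovered. The deposited table also holds the authors' log2 fold change, Wald score, p-value and adjusted p-value (DESeq2, per the file headers). Of the reads in the table, 38.5%, 38.5% and 38.6% fell in genes (shPHF2 replicate 1, replicate 2, shControl) and 44.0%, 38.7% and 42.7% on no feature; the 4 rows that name no gene were left out. No library column was unused (0).

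The test was limma 3.58.1 with a mean-variance trend on log2(value + 1) in R 4.3.3 for 14148 genes with a mean of at least 10, two-sided; edgeR 4.0.16 (2147 genes called) and DESeq2 1.42.0 on the recovered reads, other pseudocounts, filters, scalings and a GC and length correction were alternatives. The design has 1 residual degree of freedom, from shPHF2, moderated by 6.94 prior ones; the single control library has to be taken as varying like shPHF2. P-values measure the spread between these samples. The limma step was run on simulated data in which the control varied like shPHF2, so this run cannot test that assumption. Full values are given for members past the test, the most abundant and most changed per factor number, and related-gene sets. The members and lists were chosen with earlier results of these data known. Lengths and positions are from GENCODE M21 (GRCm38).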

Additional observations from a re-analysis of the deposited data

How the results depend on the processing

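Across all genes, limma called 2027 genes, 1006 lower and 1021 higher, but 936 lower and 546 higher after the GC and length correction. It called 0 genes in all, 0 initiation factors lower and 0 other translation genes lower or higher without the trend, with no filter on low values and with quantile normalization, with 3300, 3893 and 3700 genes at an unadjusted p under 0.05 in that order; edgeR called 2147 and DESeq2 1969 genes. The cause was not tested. Eif2s1, Eif2s2, Eif1a and Eif4a3 passed under the other 7 tested alternatives and Eif4e under 6 of them. The members' median log2 fold change of -0.25 moved to -0.29 with the GC and length correction, where the median of all genes moved to -0.073, and to -0.20 with quantile normalization, and was -0.28 to -0.25 with 1 shPHF2 replicate left out, which leaves no test. Eif1ax went to 0.040 and Eif3a to 0.014 with quantile normalization, and Eif2c1 to -0.019 with the GC and length correction; none of these 3 passed under any alternative. Leaving out the Argonaute genes was chosen after seeing the data. No paired analysis was possible because the control has 1 library. The single control limits all comparisons.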
